A study of Mus musculus with 26 samples.

Results

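The cytochrome P450 genes of families 1 to 4 were described in non-parenchymal cells of mouse liver. Every non-control probe of the array whose gene name was Cyp, a family digit from 1 to 4, a subfamily letter and a number was taken. The rule found 87 probes, of which 86 were well above background on at least 2 arrays. The kept probes stood for 60 genes in 20 subfamilies, out of 39591 kept probes of 26647 genes in the whole series. No gene was lost to the filter. The genes were 2 of Cyp1a, 1 of Cyp1b, 4 of Cyp2a, 5 of Cyp2b, 11 of Cyp2c, 7 of Cyp2d, 5 of Cyp2j, 5 of Cyp3a, 4 of Cyp4a, 6 of Cyp4f, and 1 each of Cyp2e, Cyp2f, Cyp2g, Cyp2r, Cyp2s, Cyp2u, Cyp2w, Cyp4b, Cyp4v and Cyp4x.

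All mice carried a Foxl1-Cre transgene and a Cre-dependent YFP reporter in the Rosa26 locus, were 6 to 10 weeks old, and differed in diet. After 3, 7 or 14 days on DDC, a porphyrin-forming diet that injures bile ducts, CD45-negative non-parenchymal cells were sorted into YFP+ cells, which had expressed the recombinase, and YFP- cells, which had not. The day 0 control was the whole non-parenchymal fraction of chow-fed mice, neither sorted by YFP nor depleted of CD45-positive cells, so diet and sorting cannot be told apart in any comparison with it. The arrays used were 2 of day 0, 3 each of YFP- cells at days 3, 7 and 14, and 4, 3 and 2 of YFP+ cells at the same days. The labels do not say whether arrays of a group came from separate mice, so p-values measure only the spread between these arrays.

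Cytochrome P450 enzymes are heme proteins of the endoplasmic reticulum that insert an oxygen atom into their substrates with electrons from the reductase Por. Families 1 to 3 are best known for the oxidation of drugs, toxins, steroids and bile acids in hepatocytes, and family 4 for the oxidation of the end carbon of fatty acids and of lipid mediators. DDC is itself a substrate that destroys the heme of P450 enzymes, and the altered porphyrin that results blocks ferrochelatase, the last enzyme of heme synthesis. In bulk RNA, fewer cells of a type and less RNA per cell cannot be told apart.

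The probes are 60 bases long, and how well they separate related genes bears on every value below. The probes of Cyp2c29, Cyp2d9, Cyp2e1 and Cyp2j11 fall on the same coding stretch of 4 different subfamilies, and the capitals mark the shared bases CANTTNNT on which they can be laid over each other.
Cyp2c29, chr19:39403642-39403701 (mm9, plus strand): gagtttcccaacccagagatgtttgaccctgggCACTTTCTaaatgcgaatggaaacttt
Cyp2d9, chr15:82286799-82286858 (mm9, plus strand): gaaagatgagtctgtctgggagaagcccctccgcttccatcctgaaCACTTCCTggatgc
Cyp2e1, chr7:147959585-147959644 (mm9, plus strand): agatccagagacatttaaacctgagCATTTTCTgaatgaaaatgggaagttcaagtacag
Cyp2j11, chr4:95964317-95964376 (mm9, minus strand): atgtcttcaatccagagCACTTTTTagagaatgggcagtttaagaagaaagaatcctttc

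Laid on that stretch without gaps, Cyp2c29 and Cyp2e1 shared 71.2% of 52 bases, and Cyp2c29 and Cyp2j11 40.9% of 44 bases. Among the used probes, 3 pairs shared a run of 15 or more bases, each pair within a subfamily. The longest run shared by the probes of Cyp2a4 and Cyp2a5 was 28 bases, by those of Cyp2j11 and Cyp2j13 18 bases, and by a Cyp2d pair 16 bases. Of the 87 probes, 2 held the codons around the heme-binding cysteine, which is conserved between P450 enzymes (capitals). Both spanned an exon junction.
Cyp2b13, chr7:26873757-26880713 (mm9, plus strand): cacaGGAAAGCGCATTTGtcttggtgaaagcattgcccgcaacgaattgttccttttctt
Cyp2j13, chr4:95712305-95723288 (mm9, minus strand): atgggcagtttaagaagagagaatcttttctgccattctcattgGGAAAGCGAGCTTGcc

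By the accessions in the files, the Cyp2b13 probe is also assigned to Cyp2b9, Cyp2b10 and Cyp2b23, and the Cyp2j13 probe to Cyp2j12. The same held for the used probes of Cyp2a4, Cyp2c40, Cyp2d9, Cyp3a11 and Cyp3a25, so these 7 genes of 60 cannot be separated from near copies. Cyp3a11 in particular stands for Cyp3a11, Cyp3a41a, Cyp3a41b and Cyp3a44 together. The gene named Cyp2c44 on the array is Cyp2c23 in current annotation.

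Between 81.0% and 91.2% of the spots of an array were well above background, and the used probes of 45 of the 60 genes were so on all 20 arrays. None was saturated. The sort was visible in markers of bile duct cells, whose 16 genes were all higher in YFP+ than in YFP- cells (median log2 difference 2.83), with adjusted p under 0.05 for 3 of them. Of 14 stellate and myofibroblast markers, 2 had estimates above 0 in YFP+ cells (list median -2.90), and 6 were lower with adjusted p under 0.05. Col1a1 was among these 6, lower by 4.95 (limma, adjusted p = 0.0362). It passed in 16 of 30 alternatives, with estimates from -5.27 to -2.85. Replicate 3 of YFP+ day 3 went against its label, with a mean biliary marker level of -1.63 against 1.05 to 2.49 on the other 3 arrays of its group. Replicate 3 of YFP- day 14 lay above all other YFP- arrays at 0.51. For the mean comparison of the fractions, counts of called genes are given with and without YFP+ day 3 replicate 3. Gene estimates and the results of day 3 alone are given with that array in the fit. Levels below are on a log2 scale relative to the upper quartile (75th percentile) of each array, and they are compared within a probe only.

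**Figure D1:**
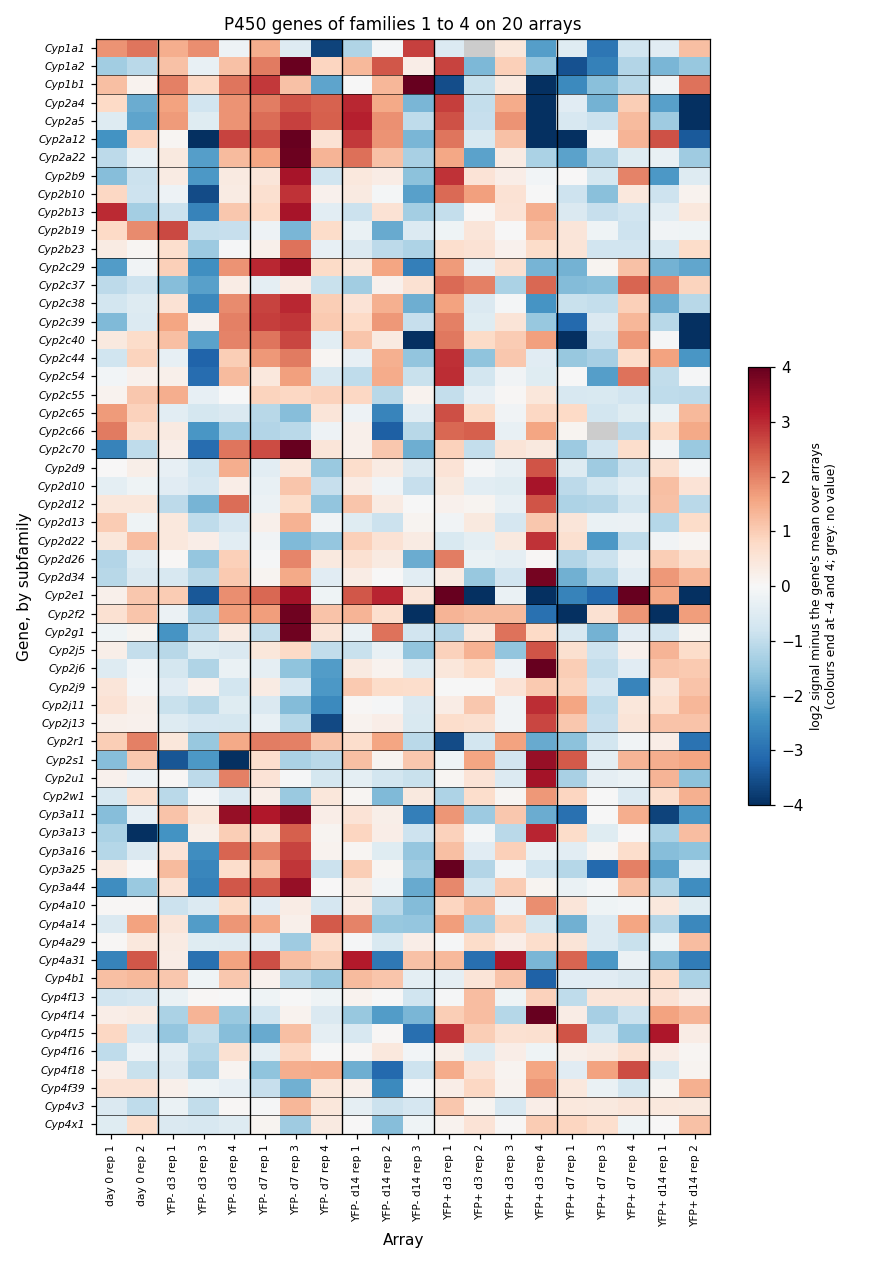
Heat map of the 60 P450 genes (rows, by subfamily) on 20 arrays (columns, by group); colour is the log2 signal minus the mean of that gene over the arrays, and grey marks no value. Cyp2a and Cyp3a rows are above their means on YFP- day 7 replicate 3, and Cyp2j rows on YFP+ day 3 replicate 4.

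The main comparison asked whether YFP+ cells carried other P450 transcripts than YFP- cells. Averaged over the 3 days, the lowest estimates in YFP+ cells were those of Cyp2a5, Cyp2a4, Cyp2c39, Cyp1a2, Cyp2e1, Cyp1b1 and Cyp3a11, and the highest those of Cyp2s1 and Cyp4f15. None of the 60 genes passed an adjusted p of 0.05 in limma's linear model, where 0.642% of all genes (171) did. At an unadjusted p under 0.05 there were 23 of 60 P450 genes, 13 higher and 10 lower in YFP+ cells, beside 21.4% of all genes (14.2% higher and 7.22% lower). Without YFP+ day 3 replicate 3, 6 P450 genes passed the adjusted threshold, beside 4.64% of all genes. Those were Cyp1a2, lower in YFP+ cells, and Cyp2c66, Cyp2j5, Cyp2j11, Cyp2j13 and Cyp2s1, higher. Cyp2c66 has no value on YFP+ day 7 replicate 3, where its spot was an outlier. With the slide as a fixed block, 7 of 60 had an unadjusted p under 0.05, beside 7.89% of all genes, and none passed the adjusted threshold. The estimated correlation of arrays on the same slide was 0.0966. No slide held both fractions at day 14, so slide and fraction are partly confounded, and shifts under this block cannot be assigned to either. The median over the 60 genes was 0.03, beside 0.06 over all genes, and 32 of 60 estimates were above 0, beside 53.8% of all genes. Genes named here outside the fixed naming rule (Cyp2a4, Cyp2a22, Cyp2b13, Cyp2c40, Cyp2c65, Cyp2c66, Cyp2c70, Cyp2d9, Cyp2j9, Cyp2j11, Cyp2j13, Cyp3a16, Cyp3a25, Cyp4f14 and Cyp4f15, and the regulator Hnf4a) were chosen after their values were seen.

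**Figure D2:**
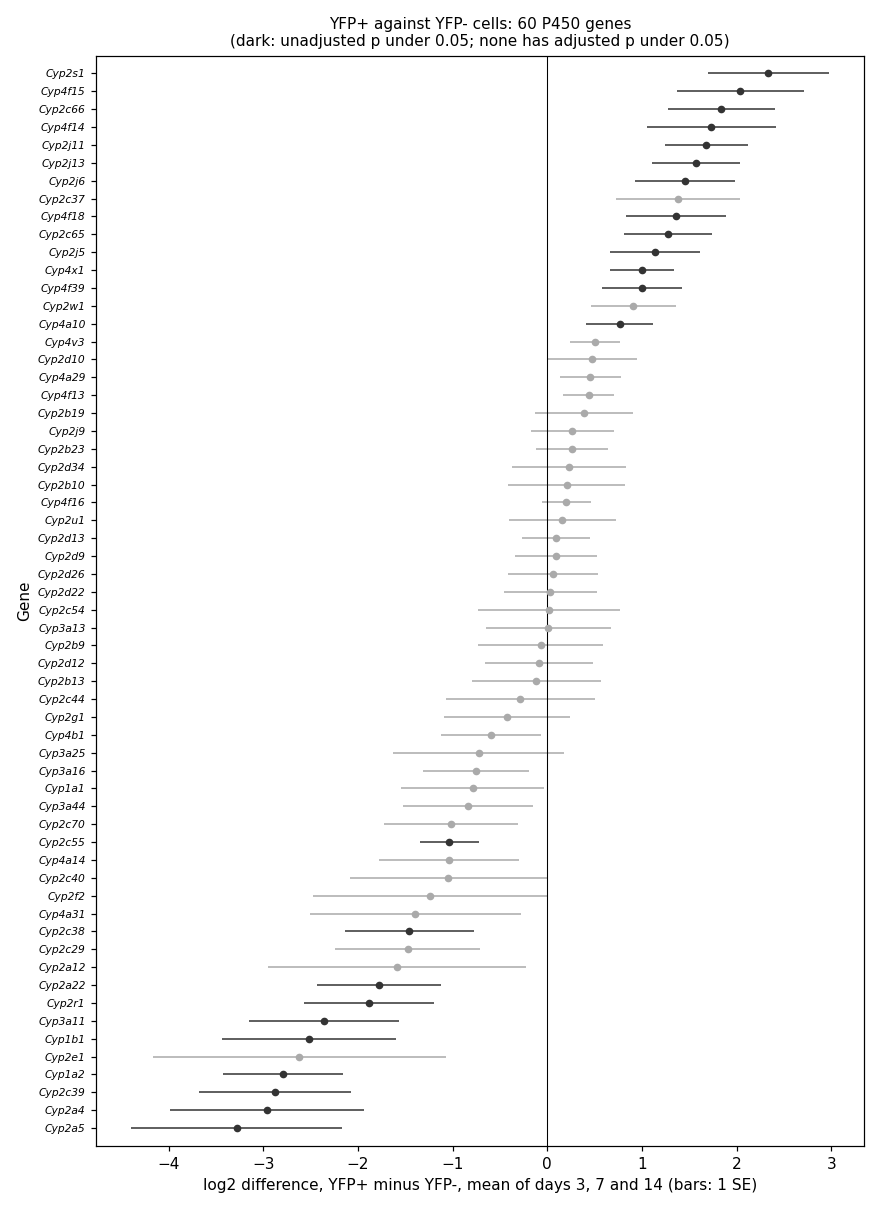
Estimated log2 difference between YFP+ and YFP- cells for each of the 60 genes (points; bars are 1 SE), averaged over days 3, 7 and 14 and sorted by size. Estimates run from -3.28 for Cyp2a5 to 2.34 for Cyp2s1, and dark points have an unadjusted p under 0.05.

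Family 1 holds the targets of the aryl hydrocarbon receptor. Cyp1a2, which oxidizes caffeine and aromatic amines and is made by hepatocytes, came closest to the threshold. On YFP- arrays its level was -2.09, -3.56 and -2.09 at day 3, -1.18, 0.69 and -2.39 at day 7, and -1.95, -0.76 and -3.00 at day 14. On YFP+ arrays it was -0.55, -5.04, -2.31 and -4.84 at day 3, -6.73, -5.96 and -4.41 at day 7, and -5.08 and -4.78 at day 14. On this probe the fractions did not overlap at days 7 and 14. At day 3 YFP+ replicate 3 lay among the YFP- arrays, replicate 1 above them and the other 2 below. The difference was -2.79 (SE 0.64), a level 6.93-fold lower in YFP+ cells, with limma's adjusted p = 0.0547. It passed in 5 of 30 alternatives, 3 of which left out an array, and its estimate ran from -3.09 to -1.90 over them. On the other Cyp1a2 probe the fractions were apart at day 7 but overlapped at day 14. There YFP- day 14 replicate 3 read -6.37, and the YFP+ day 14 arrays -6.25 and -4.87. At day 3 that probe had YFP+ replicate 3 at -3.71, below the YFP- arrays.

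Cyp1a1, the classical marker of aryl hydrocarbon exposure, did not separate the fractions (-0.79, SE 0.75). It lacked a value on YFP+ day 3 replicate 2, where its spot was an outlier and was left out of the fit. Cyp1b1 is a P450 of mesenchymal cells that oxidizes oestrogens and polycyclic hydrocarbons. Its level spanned -3.22 to 3.22 on the 9 YFP- arrays (median 0.23) and -7.51 to 1.06 on the 9 YFP+ arrays (median -2.19), a difference of -2.52 (SE 0.92, limma adjusted p = 0.143). The arrays overlapped, and the mean of both Cyp1b1 probes gave -0.99. The mean level of the stellate and myofibroblast markers ran from 0.91 to 2.59 on YFP- arrays and from -2.73 to 1.19 on YFP+ arrays. Their part in the Cyp1b1 difference was not tested.

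Cyp2a, Cyp2c and Cyp3a, subfamilies of drug- and steroid-oxidizing enzymes, had mostly negative estimates. All 4 Cyp2a genes were below 0 (median -2.37), 7 of 11 Cyp2c genes (median -1.02) and 4 of 5 Cyp3a genes (median -0.75). Cyp2a5, the coumarin hydroxylase, had levels of 1.84, -0.35 and 1.94 in YFP- cells at day 3, 2.36, 2.86 and 2.52 at day 7, and 3.24, 1.97 and -0.88 at day 14. In YFP+ cells it had 2.66, -0.79, 1.92 and -6.24 at day 3, -0.52, -0.73 and 1.38 at day 7, and -1.28 and -6.94 at day 14. The 2 lowest arrays, YFP+ day 3 replicate 4 and YFP+ day 14 replicate 2, lay more than 4 log2 units below every other array. The estimate was -3.28 (SE 1.12, limma adjusted p = 0.123) and -2.34 without the latter array. Cyp2a4, a steroid hydroxylase whose probe shares bases with that of Cyp2a5, followed it at -2.96 (SE 1.02).

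Cyp2c39, which oxidizes retinoic acid, had an estimate of -2.88 (SE 0.80, limma adjusted p = 0.0830). Its level ran from -1.84 to 1.94 in YFP- cells (median 0.66) and from -7.76 to 1.09 in YFP+ cells (median -1.51). The estimate was -1.93 without YFP+ day 14 replicate 2, the lowest array, and -1.34 with the slide as a block. Cyp3a11, the main drug-oxidizing Cyp3a of mouse liver, had -2.36 (SE 0.80, limma adjusted p = 0.121), with medians of -0.36 in YFP- and -2.36 in YFP+ cells, and -0.61 with the slide as a block. Both genes overlapped between the fractions. Cyp3a13, the other Cyp3a gene of the fixed naming rule, had a difference of 0.01 (SE 0.66).

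Cyp2e1, which oxidizes ethanol and acetaminophen, showed the widest range of the 60 genes on YFP+ arrays. In YFP+ cells its level was 0.68, -9.50, -4.16 and -9.16 at day 3, -6.57, -7.02 and 0.41 at day 7, and -2.36 and -9.62 at day 14. In YFP- cells it ran from -7.30 to -0.57 with a median of -2.05. YFP+ arrays therefore held both the highest and the lowest Cyp2e1 levels. The estimate was -2.62 (SE 1.55, limma adjusted p = 0.342), and Cyp2f2, the naphthalene oxidase, had -1.24 (SE 1.23, limma adjusted p = 0.587). Cyp2e1 was at -1.41 without YFP+ day 14 replicate 2 and at -1.12 with the slide as a block. Cyp2f2 was at 1.33 with that block, at -0.09 without YFP+ day 14 replicate 1, at -0.53 without YFP+ day 7 replicate 1, at -1.92 without YFP- day 14 replicate 3 and at -2.39 without YFP+ day 14 replicate 2. Cyp2c29, a phenobarbital-responsive gene, had -1.48 (SE 0.77), and -0.79 with the slide as a block. The mean level of the 24 measured hepatocyte markers ran from -1.51 to 2.56 on YFP- arrays and from -1.12 to 1.33 on YFP+ arrays, with a list median difference of -0.71 and 10 of 24 above 0. Alb, the main hepatocyte marker, differed by 0.05 (SE 0.33). The part of hepatocyte RNA in these P450 levels was not tested.

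Cyp2r1, the vitamin D hydroxylase of the liver, had a difference of -1.89 (SE 0.69, limma adjusted p = 0.141). Its level was -8.41, -5.58, -3.24 and -6.85 in YFP+ cells at day 3, -6.48, -5.59 and -4.98 at day 7, and -4.59 and -7.80 at day 14. In YFP- cells it ran from -6.36 to -2.79 with a median of -3.70. The fractions overlapped, and day 3 replicate 3 was the single YFP+ array above the YFP- median.

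Another group of P450 genes had positive estimates in YFP+ cells. All 5 Cyp2j genes, which make epoxides of arachidonic acid, were above 0 (median 1.46), and so were all 6 Cyp4f genes, which oxidize leukotrienes and long fatty acids (median 1.18). The signs of all 11 held under each scaling and background correction tried. The slide block and leaving out YFP+ day 7 replicate 1 each put Cyp2j9 below 0, and the mean of the probes of a gene put Cyp4f16 below 0. The mean level of the biliary markers ran from -3.12 to 0.51 on YFP- arrays and from -1.63 to 2.49 on YFP+ arrays. Their part in the result was not tested.

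Cyp2j6 had levels of -0.17, -0.67 and 0.25 in YFP- cells at day 3, 0.17, -1.10 and -1.70 at day 7, and 0.89, 0.68 and 0.00 at day 14. In YFP+ cells it had 0.98, 1.25, 0.33 and 4.83 at day 3, 1.5, -0.42 and 0.08 at day 7, and 1.63 and 1.56 at day 14. On this probe the fractions did not overlap at days 3 and 14 and did at day 7. The difference was 1.46 (SE 0.53, limma adjusted p = 0.139), and 0.50 with the slide as a block. On the other Cyp2j6 probe the fractions overlapped at days 3 and 14 as well. There YFP+ day 3 replicate 3 read -3.25, beside YFP- arrays from -3.92 to -2.82. The YFP+ day 14 arrays read -0.80 and -3.76, beside YFP- arrays from -3.20 to -2.78. Cyp2j11 had 1.68 (SE 0.44, limma adjusted p = 0.0731) on its used probe, and 0.85 with the slide as a block. Its other, dimmer probe overlapped widely, from -7.27 to -5.51 on YFP- arrays and from -6.99 to -4.95 on YFP+ arrays. Cyp2j5, a kidney and liver epoxygenase, had 1.14 (SE 0.48, limma adjusted p = 0.189).

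Cyp2s1, a dioxin-inducible P450 of epithelia outside the hepatocyte, had the highest estimate, 2.34 (SE 0.64, 5.05-fold, limma adjusted p = 0.0777). The mean of its 2 probes gave 0.89, and the slide block 1.17. Its level was -6.22, -5.08 and -7.71 in YFP- cells at day 3, -2.13, -4.07 and -3.87 at day 7, and -1.58, -2.70 and -1.73 at day 14. In YFP+ cells it was -2.96, -1.21, -3.56 and 0.68 at day 3, -0.32, -3.19 and -1.42 at day 7, and -1.34 and -1.21 at day 14. The fractions were apart at day 3, overlapped at day 7, and were apart again by a small margin at day 14. Cyp4f15 followed with 2.04 (SE 0.67, limma adjusted p = 0.115) and Cyp4f14, a leukotriene hydroxylase, with 1.73 (SE 0.68).

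Cyp2d22 had 0.03 and Cyp2b9 -0.07, and the medians were 0.09 for the 7 Cyp2d and 0.20 for the 5 Cyp2b genes. Cyp2b10, the usual reporter of the receptor Nr1i3, had 0.20. Among the fatty acid hydroxylases under Ppara, Cyp4a10 had 0.77 (SE 0.36) and Cyp4a14 -1.04, but the mean of the 4 Cyp4a10 probes gave -0.13. Cyp4x1 had 1.0 (SE 0.34), and 0.41 with the slide as a block. Cyp2w1 had 0.91, Cyp4v3 0.50, Cyp4f16 0.20, Cyp2u1 0.16 and Cyp4b1 -0.59. Cyp2g1 was well above background on 10 arrays only. Of the 22 genes with several probes, 10 had probes of opposite sign.

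**Figure D3:**
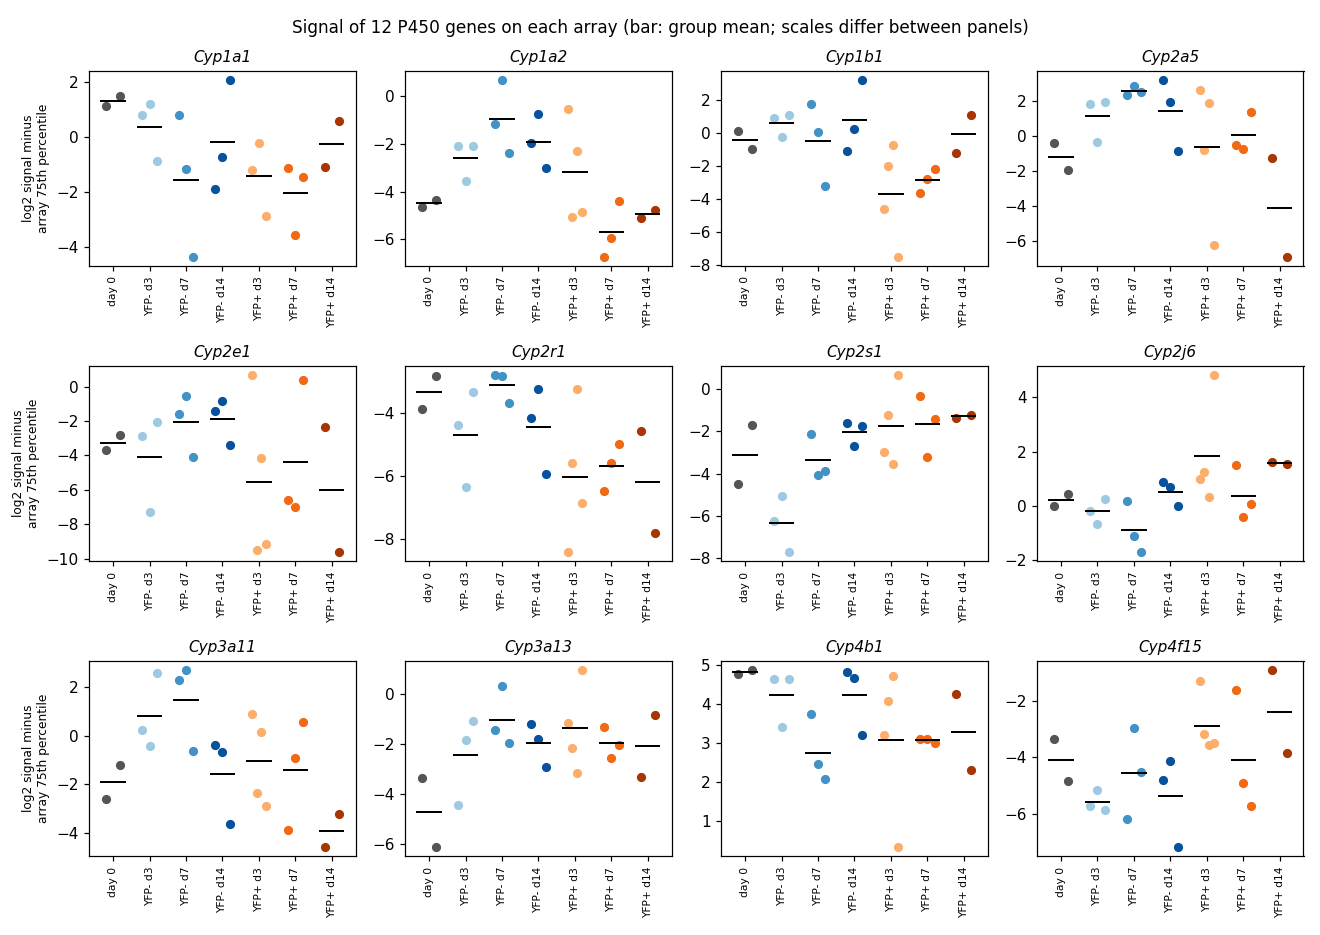
Level of 12 P450 genes (log2 signal relative to the upper quartile of the array) on each array, by group; points are arrays and bars are group means, and the vertical scales differ. Cyp1a2 is lower on all 3 YFP+ than on all 3 YFP- arrays at day 7, and Cyp2s1 is higher on all 4 YFP+ than on all 3 YFP- arrays at day 3.

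The fractions were then compared at each day. At day 3, none of the 60 P450 genes and 0% of all genes passed limma's adjusted threshold. There, 46 of 60 estimates were above 0, beside 57.1% of all genes, and 10 of 60 P450 genes had an unadjusted p under 0.05, 9 of them higher in YFP+ cells, beside 7.84% of all genes (4.91% higher). The arrays of the fractions did not overlap for 8 genes that were higher in YFP+ cells, beside 3.79% of all genes. Cyp2s1 had the highest estimate, 4.57 (SE 1.01, 23.8-fold, limma adjusted p = 0.600), and Cyp1b1 the lowest, -4.30 (SE 1.46). On the slide that held arrays of both fractions at day 3, 1 of each, 49 of 60 differences were above 0 (median 1.09). The share over all genes was not computed within a slide, so this count cannot be read as particular to P450 genes.

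At day 7 the pattern leaned the other way. None of the 60 genes and 0% of all genes passed, and 19 of 60 estimates were above 0, beside 50.2% of all genes. The hepatocyte markers were lower as well, with 2 of 24 above 0 and a median of -1.72, where day 3 had 14 of 24 (0.31) and day 14 had 13 of 24 (0.48), and their part in the result was not tested. At an unadjusted p under 0.05 there were 10 of 60, 8 of them lower in YFP+ cells, beside 5.27% of all genes (3.24% lower). The arrays did not overlap for 9 genes lower in YFP+ cells, beside 5.12% of all genes. Cyp1a2 had a difference of -4.74 (SE 1.08, 26.8-fold lower, limma adjusted p = 0.425), Cyp2a22 -3.57 (SE 1.12) and Cyp2c70, which hydroxylates bile acids, -2.92 (SE 1.20). The 2 slides with both fractions disagreed: differences were above 0 for 10 of 60 genes on the first (median -1.18) and 35 of 60 on the second (median 0.34). Cyp2c66 had no value on the first, and no share over all genes was computed within slides. The first held YFP+ replicate 3 and YFP- replicate 1, and the second replicate 4 of each. Cyp1a2 was lower in YFP+ cells on both (-4.78 and -2.02).

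At day 14, none of the 60 P450 genes passed beside 0.0225% of all genes, and 9 of 60 had an unadjusted p under 0.05 beside 12.3%. Cyp2a5 had the lowest estimate (-5.56, SE 2.12, limma adjusted p = 0.356), and Cyp4f14 the highest (3.35, SE 1.29, limma adjusted p = 0.356). The arrays did not overlap for 18 genes higher and 6 lower in YFP+ cells, beside 20.6% and 13.6% of all genes. No slide held arrays of both fractions at that day, so slide and fraction cannot be told apart within it. Day 14 had 2 YFP+ arrays. Cyp2a5 lay at -1.28 on replicate 1 and -6.94 on replicate 2, and its estimate was -2.73 without the latter and -8.39 without the former.

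Whether the difference between fractions itself moved from day 3 to day 14 was tested as a difference of differences. None of the 60 genes and 0% of all genes passed, and 1 of 60 P450 genes had an unadjusted p under 0.05 beside 2.85% of all genes. That gene was Cyp2s1 (-3.85, SE 1.57, limma adjusted p = 1.0). Within YFP- cells, Cyp2s1 differed by 4.33 between days 14 and 3 (SE 1.08, limma adjusted p = 0.999). None of the 60 genes and 0% of all genes passed in YFP- cells, with 1 of 60 at an unadjusted p under 0.05 beside 3.69%. In YFP+ cells none of the 60 passed beside 0.0263%, with 2 of 60 beside 6.36%, namely Cyp1b1 (3.63, SE 1.66) and Cyp2c39 (-4.11, SE 1.45). The Cyp2c39 difference was -1.24 without YFP+ day 14 replicate 2 and -6.97 without replicate 1, and that of Cyp1b1 was 2.37 without YFP+ day 3 replicate 4.

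The sorted cells were next set against the chow-fed day 0 fraction, which has 2 arrays that all 6 of these comparisons share. In no comparison did any of the 60 genes pass limma's adjusted threshold. The shares of all genes that did were 0.045%, 0.0488% and 0.0338% for YFP- cells at days 3, 7 and 14, and 0.0525%, 0.0338% and 0.143% for YFP+ cells. Unadjusted p-values under 0.05 were found for 3, 15 and 5 of 60 P450 genes in YFP- cells, beside 6.49%, 8.65% and 11.8% of all genes, and for 4, 4 and 2 in YFP+ cells, beside 10.2%, 11.6% and 11.4%. The median of all genes lay between -0.42 and -0.20 in these comparisons, and centring on the array median moved it to between -0.14 and 0.10.

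YFP- cells at day 7 stood out among the 6 comparisons by count. Of the 15 genes with an unadjusted p under 0.05, 11 were higher than day 0 (3.34% of all genes) and 4 lower (5.31%), and 38 of 60 estimates were above 0 beside 35.1% of all genes. The arrays did not overlap for 18 genes higher than day 0, beside 9.96% of all genes. The count was 3 of 60 with the slide as a block (3.93% of all genes), 2 without day 0 replicate 1 (3.86%), 6 without day 0 replicate 2 (6.11%) and 5 without YFP- day 7 replicate 3 (4.28%). No slide held arrays of both groups. All 4 Cyp2a genes (median 3.10) and all 5 Cyp3a genes (median 3.37) had positive estimates, and 9 of 11 Cyp2c genes (median 0.91). Without YFP- day 7 replicate 3, 4 of the 5 Cyp3a genes did.

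Cyp2c70 was at -3.60 and -1.95 at day 0 and at 1.67, 3.23 and -0.43 in YFP- cells at day 7, 4.26 higher (SE 1.34, 19.2-fold, limma adjusted p = 0.412). On the used probe, Cyp1a2 was at -4.66 and -4.34 at day 0, below all 9 YFP- arrays, and 3.54 higher at day 7 (SE 1.21, limma adjusted p = 0.474). Its other probe read -6.23 and -3.43 at day 0, within the range of the 9 YFP- arrays (-6.37 to 0.48). Cyp3a11 was 3.37 higher (SE 1.51) and Cyp2c29 3.58 higher (SE 1.46). The hepatocyte markers lay alongside, with 23 of 24 above 0 and a median of 2.13, and their mean level was -0.97 and -0.24 at day 0 and 0.53, 1.48 and 2.56 in YFP- cells at day 7. The neutrophil markers, with 7 of 7 above 0 and a median of 3.77, and the macrophage markers, with 12 of 12 and 1.29, were higher as well. That held for replicates 3 and 4 but not for replicate 1. Its mean neutrophil level was -3.86, beside -1.91 and -5.88 at day 0. Its mean macrophage level was -0.81, beside 1.83 and -0.27 at day 0. The part of these cells in the P450 levels was not tested.

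Of the genes of the naming rule, Cyp3a13, Cyp4f16 and Cyp4v3 had estimates above day 0 in every sorted group on their used probes. Cyp3a13 stood above it by 2.29, 3.72 and 2.77 in YFP- cells at days 3, 7 and 14 and by 3.37, 2.76 and 2.67 in YFP+ cells. Its day 0 levels were -3.35 and -6.14, and its estimate at day 7 in YFP- cells was 2.32 without day 0 replicate 2 and 1.14 with the slide as a block. For Cyp3a13 the group means of the 6 sorted groups lay between -2.45 and -1.03. Its adjusted p was between 0.398 and 0.747 over the 6 comparisons. In YFP+ cells at day 3, 47 of 60 estimates were above 0 (median 0.56), beside 40.6% of all genes (median -0.20), a group that held replicate 4, the highest array for Cyp2j. The estimates of Cyp4v3, a fatty acid hydroxylase, ran from 0.15 to 1.36, and those of Cyp4f16 from 0.29 to 0.99. The other Cyp4f16 probe, also assigned to Cyp4f37, did not keep that direction. Its group means lay below day 0 in YFP+ cells at days 3 and 7 and in YFP- cells at day 14. They lay above it in the other sorted groups.

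Cyp4b1, best known from lung, where it activates furan toxins, lay below day 0 in all 6 groups, with estimates from -2.07 to -0.59. Its day 0 arrays read 4.77 and 4.86, and its sorted arrays ran from 0.32 to 4.82. Cyp1a1 also lay below day 0 in all 6 groups. Its day 0 levels were 1.13 and 1.49, and the estimate was -3.36 in YFP+ cells at day 7 (SE 1.40, limma adjusted p = 0.392). Cyp2r1 lay below day 0 in YFP+ cells at all 3 days (-2.67, -2.33 and -2.84), but not in YFP- cells at day 7, where the estimate was 0.25.

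**Figure D4:**
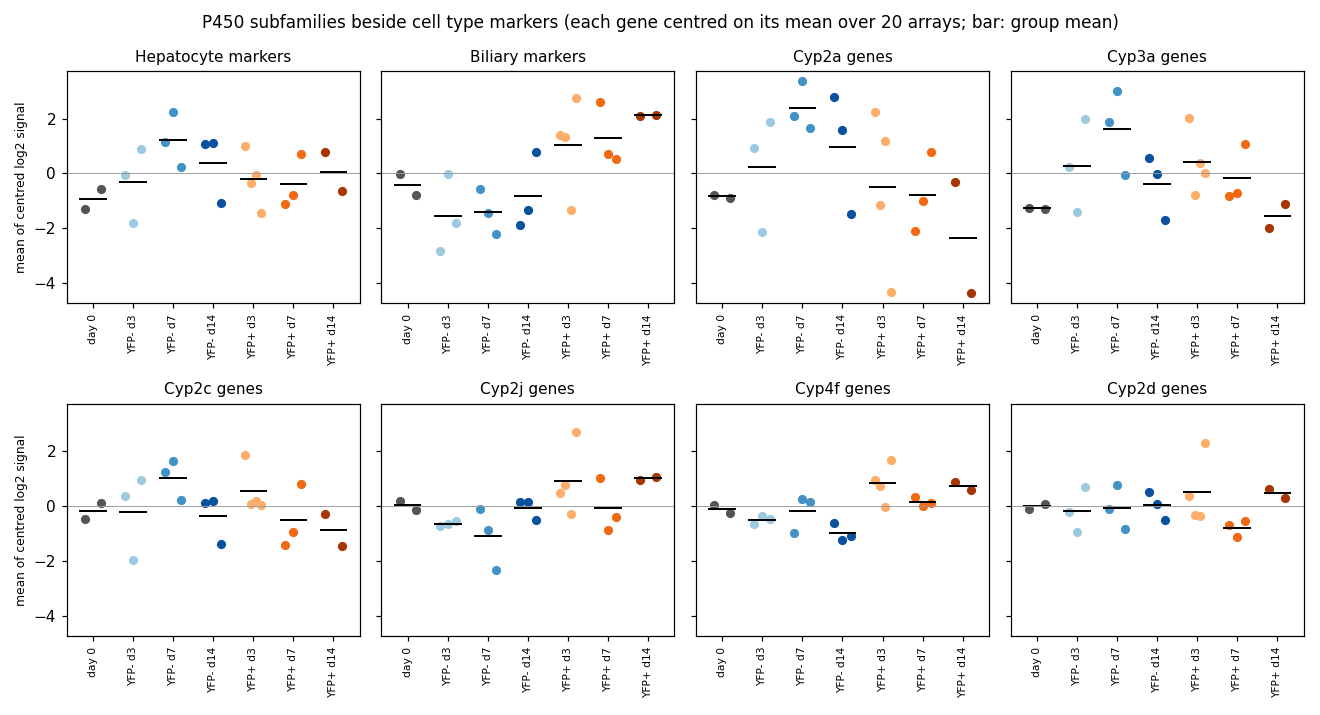
Mean centred log2 signal of the hepatocyte and biliary markers and of 6 P450 subfamilies on each array (points), by group (bars are group means); each gene was centred on its mean over the 20 arrays. The Cyp2a and Cyp3a genes reach 3.36 and 3.02 on YFP- day 7 replicate 3, the array with the highest hepatocyte marker mean (2.24), and the Cyp2j genes reach 2.70 on YFP+ day 3 replicate 4, the array with the highest biliary mean (2.77). The Cyp2d and Cyp4f genes are highest on the latter array too (2.32 and 1.68). YFP+ day 7 replicate 1, with a biliary mean of 2.60, has the Cyp2j genes at 1.03.

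The authors' deposited table gives signed fold changes and false discovery rates against day 0 per probe. At a false discovery rate of up to 5% it lists 19 of 86 P450 probes for YFP- cells at day 7 (3.62% of 42175 probes), 18 of them higher (3.09% of all probes), in 14 genes. The authors' deposited table has Cyp2a5 33.7-fold, Cyp1a2 15.4-fold (the probe used here), Cyp2c70 14.8-fold and Cyp3a13 13.0-fold higher in that group. For the other groups the authors' deposited table lists 2 P450 probes in YFP- cells at day 3 (3.37% of probes), 2 at day 14 (1.64%), and 1, 9 and 16 in YFP+ cells at days 3, 7 and 14 (1.94%, 10.6% and 16.3%). The only P450 probe it lists as lower in YFP- cells at day 7 is 1 of Cyp4a10 (0.531% of all probes). It is not the Cyp4a10 probe used here, which is the brightest of 4. How many arrays entered that table is not given in the sources used here.

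**Figure D5:**
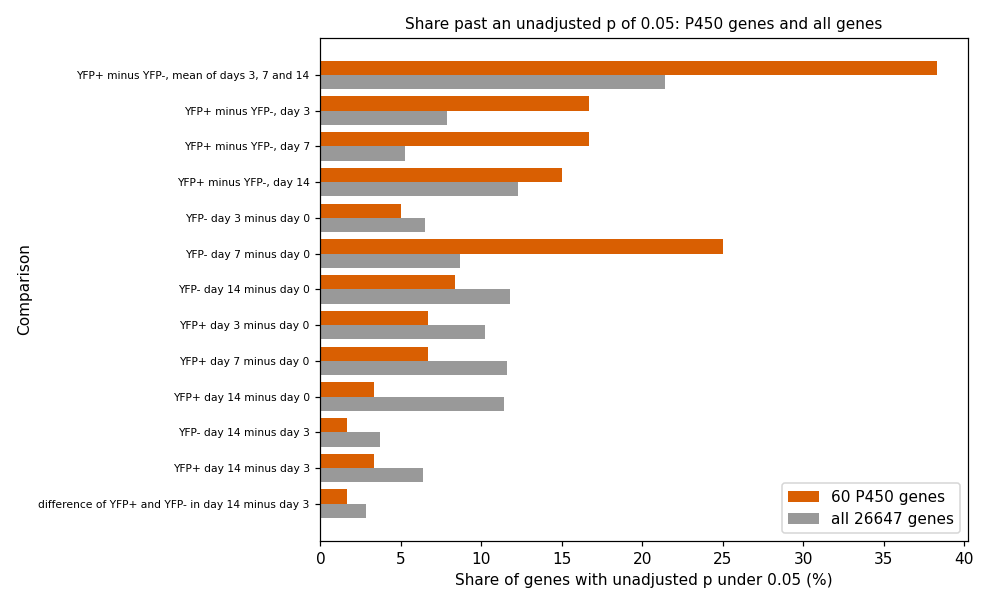
Share of genes with an unadjusted p under 0.05 in each of the 13 comparisons, for the 60 P450 genes (orange bars) and for all genes (grey bars). The P450 share is 38.3% against 21.4% for YFP+ against YFP- over the 3 days, 25.0% against 8.65% for YFP- day 7 against day 0, and below that of all genes in 8 of the 13 comparisons.

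The partners of P450 enzymes were read from 3 lists. In the mean comparison of YFP+ with YFP- cells, 1 of 14 regulators passed the adjusted threshold. It was the oestrogen receptor Esr1, lower in YFP+ cells (-1.77, SE 0.24, limma adjusted p = 0.0120). Of 13 epoxide hydrolases and other oxidizing enzymes 1 passed, the aldehyde oxidase Aox1, also lower (-1.36, SE 0.24, limma adjusted p = 0.0315). Of 9 redox partners none passed. Esr1 passed in 28 of 30 alternatives, not with the slide as a block or with the mean of its probes (adjusted p up to 0.428 in limma). Aox1 passed in 21 of 30 (adjusted p up to 0.489 in limma), and lost the call with the slide block and without any of YFP- day 3 replicate 4, YFP- day 7 replicates 1 and 3, YFP- day 14 replicate 1, YFP+ day 7 replicate 1 and YFP+ day 14 replicates 1 and 2. The medians of the 3 lists were -0.25, -0.49 and -0.06, beside 0.06 over all genes. Por differed by -0.18 (SE 0.25), the aryl hydrocarbon receptor Ahr by -0.75 (SE 0.34), and the xenobiotic receptors Nr1i2 and Nr1i3 by 0.92 (SE 0.67) and -0.29 (SE 0.49). In YFP- cells at day 7 the estimates against day 0 were 0.85 for Por, -1.21 for Ahr, -0.27 for Nr1i2 and 1.54 for Nr1i3, with no gene of the 3 lists past the adjusted threshold.

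Promoters were searched for letters bound by regulators of these genes. The search was chosen after the high Cyp2c and Cyp3a estimates in YFP- cells at day 7 were seen. RefSeq promoters (GRCm38.p6, 250 bases before to 50 after the start) were found for 48 of the 60 genes, 54 promoters in all. The letters CAAAGTCCA, a sequence of the kind bound by Hnf4a, were found on either strand in 5 of the 54 (9.26%) and in 0.475% of all 32851 promoters. The 5 genes were Cyp2c40, Cyp2c65, Cyp2c70, Cyp3a11 and Cyp3a16, and 60 bases around each match (capitals) are printed to show how the sequence beside it differs between genes.
Cyp3a11, chr5:145879924-145879983 (minus strand): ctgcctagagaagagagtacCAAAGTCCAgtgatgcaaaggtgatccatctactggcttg
Cyp3a16, chr5:145469783-145469842 (minus strand): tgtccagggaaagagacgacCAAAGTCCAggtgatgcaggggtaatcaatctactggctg
Cyp2c40, chr19:39812820-39812879 (minus strand): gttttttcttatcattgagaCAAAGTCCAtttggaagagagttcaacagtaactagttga
Cyp2c65, chr19:39060870-39060929 (plus strand): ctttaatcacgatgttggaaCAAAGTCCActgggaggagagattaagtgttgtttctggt
Cyp2c70, chr19:40187311-40187370 (minus strand): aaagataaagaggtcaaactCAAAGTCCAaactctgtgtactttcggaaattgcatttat

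In YFP- cells at day 7 the log2 differences from day 0 of these 5 genes were 3.37, 2.48, 0.91, -2.07 and 4.26 in the order printed, and that of Hnf4a was 2.64 (SE 0.88, limma adjusted p = 0.473). Cyp2c65 lay below day 0. Genes without the letters lay on both sides of day 0 too, with all 4 Cyp2a genes above (median 3.10) and Cyp1a1 below (-2.88). The used probes of Cyp3a11 and Cyp2c40 are each assigned to 4 genes, so their values cannot be tied to 1 promoter. The matched genes are related, so the matches are not independent. The part of Hnf4a in these levels was not tested. The core letters of the aryl hydrocarbon response, GCGTG, were found on either strand in 12 of 54 P450 promoters (22.2%) and in 32.4% of all, and Cyp1a1, Cyp1b1, Cyp2r1 and Cyp4v3 were among the 11 genes with a match. The letters TATAAA were found in 22 of 54 (40.7%) and in 13.6% of all. A match is a description of the letters in this window.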

How the data were processed

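RNA of 20 of the 26 samples was read on 1-colour Agilent mouse arrays, and the other 6 samples are not analysed here. Per the labels' protocols, RNA was amplified and labelled with Cy3. The deposited intensity values are scanner signals, background-subtracted and detrended by Agilent Feature Extraction (version 10.5.1.1 per the file headers, 9.53 per the submitters' processing notes). The authors' deposited table holds signed fold changes and false discovery rates in percent, both handled as a score, and the method behind it is not given in the sources used here.

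From the processed intensity as deposited, log2 was taken and the 75th percentile of each array subtracted. Flagged outlier spots were left out, spots of a probe averaged, probes kept if well above background on at least 2 arrays, and the brightest probe used per gene. A linear model over the 7 groups was fitted to 26647 genes with limma 3.58.1 (R 4.3.3), with 13 residual and 2.32 prior degrees of freedom and Benjamini-Hochberg adjustment over all genes in each of 13 comparisons (threshold 0.05). The number of arrays limits the precision. The scripts were tested on simulated data. Named genes were the brightest of each subfamily, a list of well-studied P450 genes, and any past the threshold. The member genes, lists and tests were chosen with earlier results of these data known. Alternatives covered background correction, scaling, the filter, probe choice, slide and replicate as blocks, and each array left out. Probe coordinates are those of the files (mm9); current symbols and promoters come from RefSeq (GRCm38.p6).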

Additional observations from a re-analysis of the deposited data

Results flagged for a closer look

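YFP+ cells at day 3 were the only group with 4 arrays. There, 6 of 59 P450 genes had an array whose gap to the nearest other array passed Dixon's 95% limit. The gap is taken as a share of the range, and chance alone marks about 1 in 20 independent genes. The share over all genes was not computed, so the count cannot be read as particular to P450 genes. Replicate 4, an array on a slide of its own, stood apart for Cyp2d12 (2.95, others 0.12 to 0.58) and for Cyp2f2 (-5.98, others -1.75 to -1.65). Replicate 1 stood apart for Cyp2c54 (-1.69, others -5.38 to -4.80), Cyp2d26 (0.14, others -2.24 to -1.84) and Cyp4f15 (-1.30, others -3.55 to -3.18). Replicate 3, the array whose biliary markers went against its label, stood apart for Cyp2c37 (-3.68, others -0.40 to -0.12).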

How the results depend on the processing

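For YFP+ against YFP- cells over the 3 days, the number of P450 genes past limma's adjusted threshold was 0 as reported, 2 after quantile normalization (Cyp1a2 lower, Cyp2j11 higher) and 1 when probes had to be well above background on every array of a group (Cyp1a2). With each array left out in turn it ran from 0 to 6. It was 6 without YFP+ day 3 replicate 3, and 1 (Cyp1a2) without YFP- day 3 replicate 3 or without YFP+ day 3 replicate 1. The cause was not tested. In the other 12 comparisons it was 0 under every alternative run. The count over all genes, 171 as reported, was 1107 after quantile normalization, 360 with the array median, 43 with normexp background correction, 2 when slide was blocked and 16 to 1233 with an array left out, the lowest without YFP+ day 14 replicate 1 and the highest without YFP+ day 3 replicate 3. P450 genes at an unadjusted p under 0.05 numbered 15 to 26 with an array left out, the lowest without YFP+ day 14 replicate 2. Of 60 P450 estimates, 37 kept their sign in all alternatives in this comparison, and 35 in YFP- day 7 against day 0. With the replicate block, the paired analysis called 0 P450 genes and 42 of all genes for YFP+ against YFP- cells, and Aox1 was not among the 42. For YFP- day 7 against day 0 it left 8 P450 genes at an unadjusted p under 0.05 (7.15% of all genes). Same-numbered arrays of different groups did not deviate together (median correlation 0.00519 over 43 pairs, 8 of them over 0.1), so the numbers were not taken to pair samples. Groups of 2 to 4 arrays limit every comparison.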
